A study of Drosophila melanogaster with 2 samples.

Results

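The genes of the RNA polymerase II transcription machinery were examined for binding of the fly protein CG10147, which is predicted to carry zinc fingers, at their promoters. Members were all protein-coding genes of the FlyBase annotation distributed by Ensembl whose symbol starts with Polr2, TfII, Taf and a digit, or MED and a digit. This gave 62 of the 13945 protein-coding genes on the large arms, chromosome 4 and X: 13 Polr2 genes, 9 TfII genes, 15 Taf genes and 25 MED genes. The rule for membership uses symbols and no binding value, but the set was picked for study with earlier results of these data known.

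Chromatin immunoprecipitation sequencing was done on whole embryos of mixed sex, collected at 0 to 24 hours, from a transgenic strain that makes CG10147 with GFP at its carboxyl end. An antibody to GFP pulled down the sonicated chromatin. All libraries belonged to this 1 group, in which the labels name biological replicates 2 and 3, and no untagged or mutant embryos were analysed here. The labels do not say whether the flies also kept an untagged copy of CG10147. The embryos hold all tissues together, so binding cannot be assigned to a cell type.

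RNA polymerase II transcribes protein-coding genes, and it needs helpers to find a promoter. TFIID, built from the TATA-binding protein and its associated factors (Taf proteins), recognises the core promoter. General factors (TfII proteins) then place the polymerase and help it to start. Mediator, a large complex in head, middle and tail modules with a detachable kinase module, carries signals from DNA-bound regulators to the polymerase. Most of this machinery is general and works in nearly all cell types, while Taf12L is a testis form.

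The data were 4 peak lists. The list of each replicate and the list of the pooled libraries held 30000 peaks each. A further list, the top of the pooled list, had been cut by the irreproducible discovery rate (IDR), a measure of how well replicates rank the same peaks. A promoter peak here is a peak whose summit lay within 500 bp of an annotated transcription start site (TSS) of the gene. Signal is the authors' own peak value, in units of their caller, and is read within a list, where rank 1 is the strongest peak. It carries no replicate error, and the read depth behind it is unknown.

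Windows of 200 bp on the summit are shown for the Polr2, TfII, Taf and MED gene with the strongest IDR peak, because these sites anchor the results below. A further window shows the promoter that Taf10 and Taf10b share, which was chosen after its values were seen. Each is read 5′ to 3′ on the strand of the gene, from the Release 6 assembly, whose coordinates are those of dm6. Capitals mark the heptamer AAAATAT or the related heptamer TTTAAAA, and would mark the Dref octamer TATCGATA or the M1BP core GGTCACAC, on either strand.
Polr2B: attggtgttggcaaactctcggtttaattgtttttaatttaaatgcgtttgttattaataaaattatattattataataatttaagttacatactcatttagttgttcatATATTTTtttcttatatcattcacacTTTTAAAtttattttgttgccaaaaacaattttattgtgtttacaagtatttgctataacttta
TfIIA-L: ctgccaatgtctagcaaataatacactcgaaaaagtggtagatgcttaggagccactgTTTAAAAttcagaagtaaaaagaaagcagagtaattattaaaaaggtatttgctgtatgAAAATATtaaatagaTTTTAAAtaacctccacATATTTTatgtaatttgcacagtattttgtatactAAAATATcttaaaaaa
Taf2: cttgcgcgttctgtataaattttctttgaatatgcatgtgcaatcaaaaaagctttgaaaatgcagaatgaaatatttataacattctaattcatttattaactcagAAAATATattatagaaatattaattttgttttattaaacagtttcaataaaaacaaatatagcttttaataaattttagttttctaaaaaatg
MED27: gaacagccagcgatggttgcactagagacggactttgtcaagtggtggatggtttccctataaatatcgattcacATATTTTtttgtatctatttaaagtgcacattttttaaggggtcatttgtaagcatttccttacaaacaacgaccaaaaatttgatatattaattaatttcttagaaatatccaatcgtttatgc
Taf10: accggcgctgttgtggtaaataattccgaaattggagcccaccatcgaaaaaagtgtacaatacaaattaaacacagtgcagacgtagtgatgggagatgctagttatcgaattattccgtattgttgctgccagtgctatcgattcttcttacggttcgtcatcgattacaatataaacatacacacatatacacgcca
The Polr2B window is chr3R:14125564-14125763 on the plus strand and the TfIIA-L window is chr3R:27253188-27253387 on the plus strand. The Taf2 window is chr3L:9888857-9889056 on the minus strand, the MED27 window is chr3R:5654888-5655087 on the plus strand and the Taf10 window is chr2L:2767733-2767932 on the plus strand. G and C made up 20% of the Polr2B and the Taf2 window, 26.5% of the TfIIA-L window, 33.0% of the MED27 window and 40.5% of the Taf10 window. The Taf10 window held none of the motifs in capitals, and each of the others held at least 1 copy of AAAATAT.

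Promoters of these genes carried IDR peaks more often than those of protein-coding genes as a whole, but most of the summits were nearer to the TSS of a neighbouring gene. An IDR promoter peak was present at 24 of 62 members (38.7%), against 20.3% of all 13945 protein-coding genes. The exact Clopper-Pearson 95% interval of the members' share, which covers counting error only, was 26.6 to 51.9%. At 13 of the 24 the TSS of another gene lay nearer to the summit. Among the 13 was Taf10, where the nearer gene is another member, Taf10b. When an IDR peak was counted only where no other gene's TSS was nearer, a count added after seeing the data, 11 members had one (17.7%), against 15.2% of all protein-coding genes. The members' share in that count was near the background. Such a count credits a shared peak to the nearer gene alone. Another gene's TSS on the opposite strand lay within 500 bp upstream at 62.9% of members, against 29.6% of protein-coding genes. The shares of members and background in that count are therefore not like for like. The strongest IDR promoter peak had a median signal of 300.8 over the 24 members and 257.0 over all protein-coding genes with one.

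In the pooled list 37 members (59.7%) had a promoter peak, against 44.8% of protein-coding genes. The replicate 2 list held one for 43 members (69.4%, background 47.3%) and the replicate 3 list for 39 (62.9%, background 46.2%). In both replicate lists together it was 33 members (53.2%, background 39.3%). These lists run down to weak peaks, which enter the counts. The authors' −log10 q value was 0.705 for MED11 and 0.926 for Polr2G in the pooled list, and 0.372 for MED1 in replicate 2. Of the 62 members, 24 were in the IDR list and 13 in the pooled list but not in the IDR list (21.0%, background 24.5%). The share with a pooled but no IDR peak was therefore not above the background. A further 13 members were in a replicate list only, a class whose background share was not counted as such. Of the 43 members with a replicate 2 promoter peak, 9 had none in the pooled list (20.9%, background 13.7%). Of the 39 with a replicate 3 peak it was 5 (12.8%, background 10.1%). The other 12 of the 62 members were in no list (19.4%, background 45.2%).

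The complexes had overlapping shares. IDR promoter peaks were found at 7 of 15 Taf genes (46.7%, exact interval 21.3 to 73.4%), 10 of 25 MED genes (40.0%, 21.1 to 61.3%), 3 of 9 TfII genes (33.3%, 7.49 to 70.1%) and 4 of 13 Polr2 genes (30.8%, 9.09 to 61.4%). The same order held in the pooled list, with 10 of 15 Taf, 15 of 25 MED, 5 of 9 TfII and 7 of 13 Polr2 genes. It did not hold in the replicate 2 list, where TfII genes stood highest with 8 of 9 and MED genes lowest with 16 of 25. In the replicate 3 list Taf genes led with 11 of 15 and Polr2 genes were lowest with 6 of 13. No test between complexes was made, and each interval contains the shares of the other complexes. Counted only where no other gene's TSS was nearer, the IDR peaks belonged to 3 of 15 Taf (20%) and 5 of 25 MED genes (20%). In the same count it was 1 of 9 TfII (11.1%) and 2 of 13 Polr2 genes (15.4%), against 15.2% of all protein-coding genes.

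**Figure D1:**
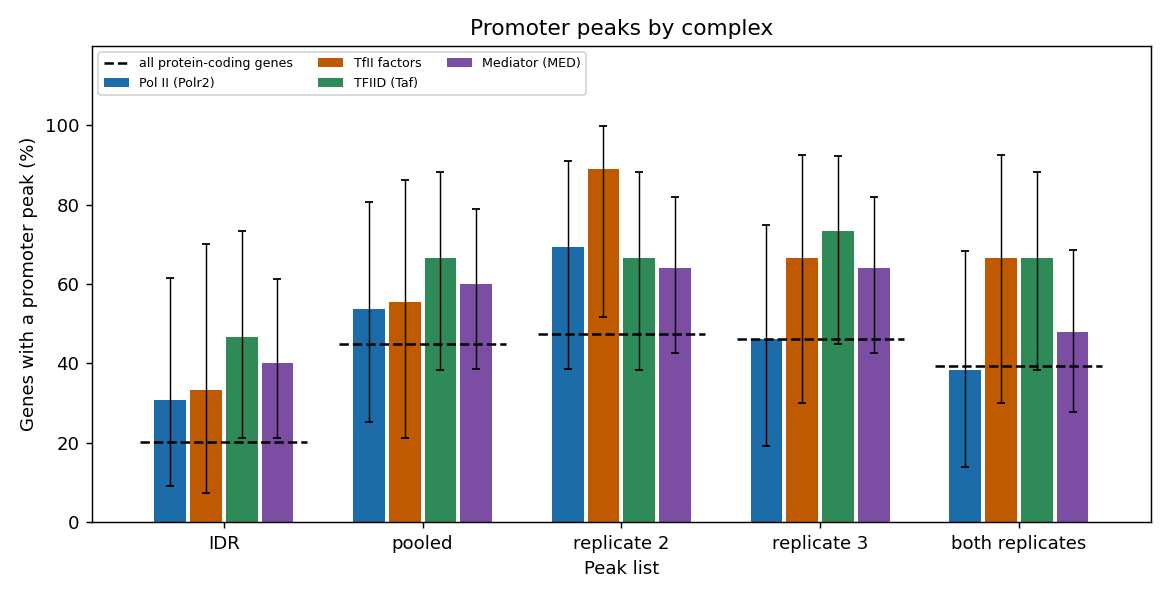
Percentage of genes in each complex with a promoter peak (y axis) in each peak list (x axis); whiskers are exact Clopper-Pearson 95% intervals and dashed lines the share of all protein-coding genes. In the IDR list the bars run from 30.8% for Polr2 genes to 46.7% for Taf genes, above the line at 20.3%, and the whiskers overlap.

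Of the polymerase subunits, Polr2B, which encodes the second largest subunit, had the strongest peak. Its IDR signal was 522 (rank 552), with 157 in replicate 2 (rank 966) and 377 in replicate 3 (rank 442). The region spans chr3R:14125532-14125833, and its summit lay 127 bp upstream of the Polr2B TSS and 116 bp from that of the divergent gene 140up. Both libraries held the peak, at a promoter that serves both genes.

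Polr2F and Polr2H encode small subunits that all nuclear RNA polymerases share. Polr2F had a signal of 308 in the IDR list, 152 in replicate 2 and 167 in replicate 3, with the summit 42 bp upstream and no other gene's TSS within 500 bp. Polr2H had 304, 90.8 and 221, and its summit lay 169 bp upstream, past the TSS of CG11247, which was 43 bp away. Polr2A encodes the largest subunit, which carries the repeated tail that is phosphorylated during transcription. Its peak had 241 in the IDR list and 129.8 in replicate 3, the lowest of the 4 in both, and 99.6 in replicate 2, where Polr2H was lower. The summit lay 70 bp upstream on the side of Polr2A.

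Below the IDR list, Polr2E, another shared subunit gene, had a pooled signal of 119 and 49.5 in replicate 2, with no promoter peak in replicate 3. Polr2I, which encodes a small subunit, had 72.8 in the pooled list, 25.9 in replicate 2 and 67.1 in replicate 3, and shares its promoter with su(Hw), an insulator protein gene. Polr2G, a subunit of the stalk, had 55.5 in the pooled list alone. Of the other subunit genes, Polr2C, Polr2D and Polr2K had weak peaks in replicate 2 only, from 19.6 to 39.5. Polr2L and Polr2M had no promoter peak in any list. By counts, 2 of the 5 genes for subunits shared between polymerases had an IDR peak (exact interval 5.27 to 85.3%). For subunits of Pol II alone it was 2 of the 7 (3.67 to 71.0%), against 20.3% of all protein-coding genes. These intervals overlap widely. Polr2M, whose mammalian relative is an associated protein and not a core subunit, was left out.

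Polr2J stood apart from these. It encodes a small subunit that pairs with Polr2C in assembly. Its promoter peak had a signal of 321 and rank 599 in replicate 3, yet neither replicate 2 nor the pooled list had a promoter peak there, and the nearest pooled summit was 11916 bp away. The replicate 3 region spans chr2L:17410393-17410569.

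**Figure D2:**
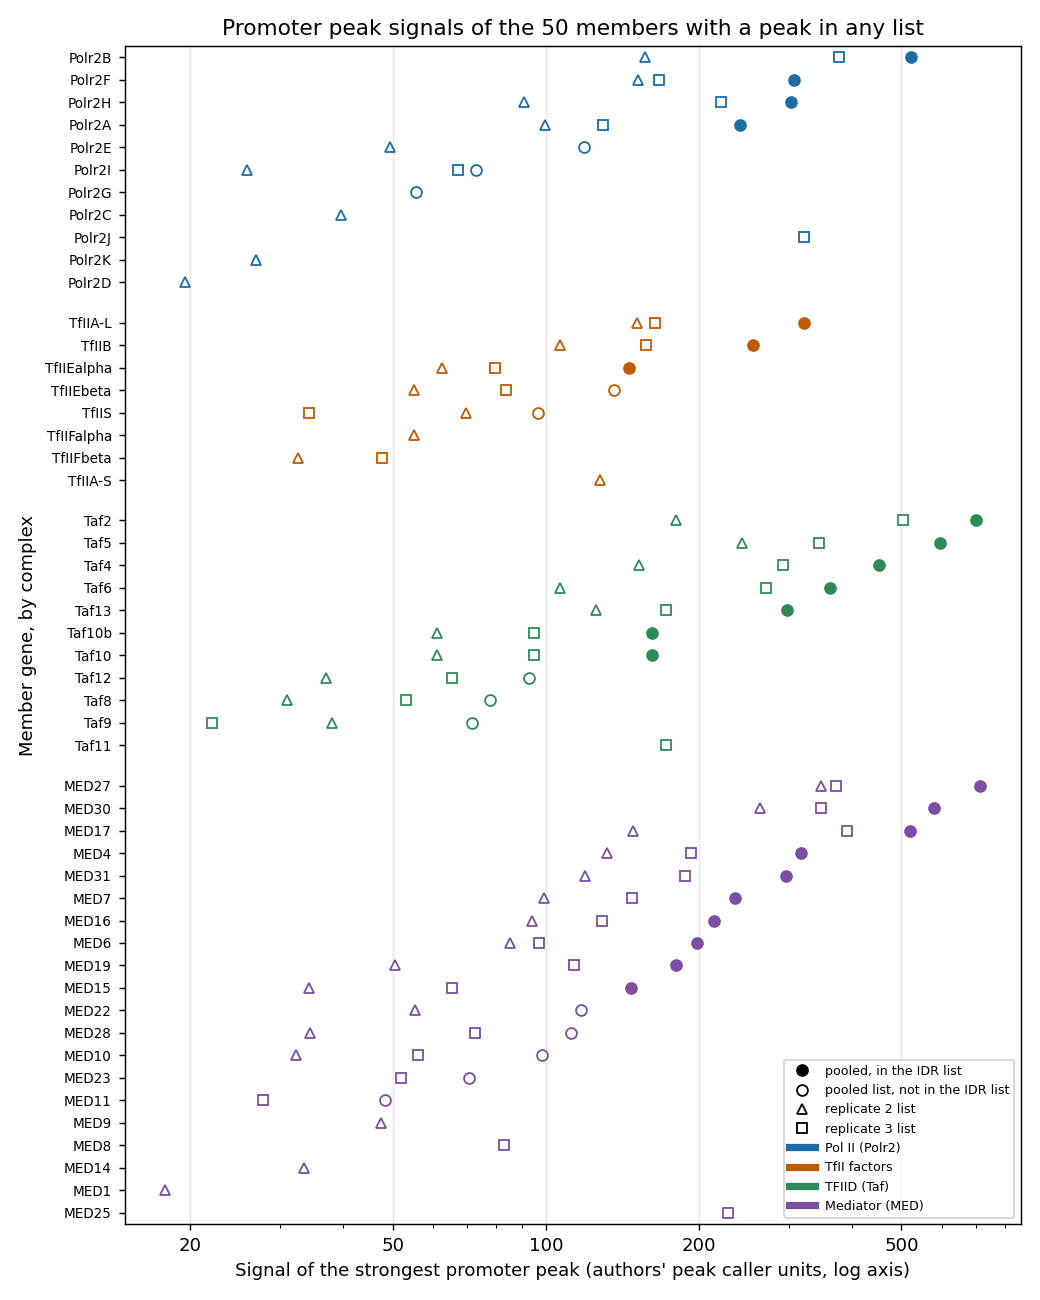
Signal of the strongest promoter peak (x axis, log scale, authors' units) for each of the 50 members with a peak in any list (y axis), by complex; circles are the pooled list, filled where the peak is in the IDR list, triangles replicate 2 and squares replicate 3. Signals compare within a list only; MED27 (713) and Taf2 (700.3) are highest in the pooled list, and Polr2J, Taf11, MED25 and MED8 have a replicate 3 value alone.

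Among the general factors, the gene for the large subunit precursor of TFIIA and that for TFIIB were bound. TfIIA-L had a signal of 322 in the IDR list, 151 in replicate 2 and 164 in replicate 3. Its peak sits inside the gene at the downstream of its 2 TSSs, 142 bp upstream of that site and 106 bp from the TSS of pll, the pelle kinase gene of the Toll pathway. TfIIB, whose product bridges TFIID and the polymerase, had 255, 107 and 157, with the summit 313 bp upstream and 107 bp from the TSS of Bug22. Both peaks lay nearer to the neighbouring gene.

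The genes of TFIIE, a factor of 2 subunits that helps to open the DNA, fell on either side of the IDR cut. TfIIEalpha had a pooled signal of 146.0 (rank 4505 of 30000), with 62.4 in replicate 2 and 79.5 in replicate 3. TfIIEbeta had 136.0 (rank 5009), with 55.1 and 83.3, so that replicate 3 placed it higher. Neither shared its promoter with another gene's TSS. These pooled signals lay just inside and just outside the cut.

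TfIIS, the gene of an elongation factor that rescues stalled polymerase, had a pooled signal of 96.6, with 69.5 in replicate 2 and 34.3 in replicate 3. Its summit lay 52 bp downstream of the TSS in the pooled list and 112 bp upstream in replicate 3, so these were not matched within 100 bp. For TFIIF, TfIIFalpha had 55.1 in replicate 2 only, and TfIIFbeta had 32.6 in replicate 2 and 47.7 in replicate 3 with no pooled peak. The TfIIFbeta summits differed, at 341 bp downstream of the TSS in replicate 2 and 156 bp downstream in replicate 3. TfIIA-S, for the small TFIIA subunit, had 128.0 in replicate 2 (rank 1400) and no promoter peak in the other lists. Its paralogue TfIIA-S-2 had none in any list. Of the TfII genes only TfIIA-S-2 was without a peak in all 4 lists.

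TFIID genes included some of the strongest promoter peaks in the set. Taf2 had an IDR signal of 700.3 (rank 312), with 180.5 in replicate 2 (rank 722) and 504 in replicate 3 (rank 246). The region spans chr3L:9888718-9889105. Its summit was 273 bp upstream of Taf2 and 148 bp from the TSS of CalpB, a calpain protease gene. Taf2 helps TFIID to contact the initiator at the start site.

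Taf5, whose product is a scaffold of the complex, had 594 in the IDR list (rank 424), 243 in replicate 2 and 344 in replicate 3. Its summit lay 132 bp upstream, between Taf5 and the peroxisome biogenesis gene Pex6, whose TSS was 169 bp away. Taf4, a scaffold subunit that contacts activators, had 451 in the IDR list, 152 in replicate 2 and 293 in replicate 3, and is the one Taf gene with an IDR peak and no other TSS within 500 bp of the summit. The summit at Taf4 fell at the same base in all lists.

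Taf6, Taf9 and Taf12 encode proteins with a histone fold, a shape by which Taf proteins pair. Taf6 had 362 in the IDR list, 106.8 in replicate 2 and 272 in replicate 3, with the summit 76 bp from the TSS of ash1, a histone methyltransferase gene of the trithorax group. Taf13, also of the histone fold class, had 298 in the IDR list, 125.4 in replicate 2 and 172 in replicate 3. Its summit was 1 bp from the TSS of nesd and 124 bp upstream of its own.

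Taf10 and Taf10b encode paralogous histone fold proteins, and their TSSs lie 45 bp apart on opposite strands. A single peak, chr2L:2767641-2768024, gave both their IDR call, with a signal of 162 in the IDR list, 61.1 in replicate 2 and 94.7 in replicate 3. Its summit was 12 bp inside Taf10b and 57 bp upstream of Taf10. The 24 members with an IDR peak therefore stood for 23 sites.

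None of the other Taf genes had an IDR promoter peak. Pooled signals were 92.7 for Taf12, 77.6 for Taf8 and 71.8 for Taf9, each with a peak in both replicate lists. Taf11 had 172 in replicate 3 (rank 1748) and no peak elsewhere. No list held a promoter peak for Taf1, the largest subunit, for Taf3 on chromosome 4, for Taf7 or for Taf12L, a testis relative of Taf12.

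The strongest promoter peak of any member in the IDR, pooled and replicate 2 lists was at a Mediator gene, MED27, while in replicate 3 Taf2 was stronger. MED27 had an IDR signal of 713 (rank 304), with 347 in replicate 2 (rank 209) and 372 in replicate 3 (rank 450). The region spans chr3R:5654826-5655190, and its summit was 151 bp upstream of MED27 and 127 bp from the TSS of elm. MED30, a subunit found in animals and not in yeast, had 579.6 in the IDR list, 264 in replicate 2 and 347 in replicate 3, with the summit 87 bp from the TSS of Rev1, a translesion DNA polymerase gene. MED17, which encodes the core of the head module, had 519.7, 149 and 392, and here the summit was nearer to MED17 (148 bp) than to CG12321 (217 bp). All 3 were among the 6 members whose IDR signal was over 500.

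Subunits of the middle module followed. MED4 had 317 in the IDR list, 132 in replicate 2 and 193 in replicate 3, MED31 had 297, 119 and 188, and MED7 had 235, 99.1 and 147. The MED4 summit lay 33 bp from the TSS of an antisense RNA gene, asRNA:CR43470, and the MED31 summit 52 bp from that of CG9775. At MED7 the summit was 108 bp upstream, with Cap-H2, a condensin subunit gene, 170 bp away on the other side.

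The remaining IDR members were weaker. MED16, of the tail, had 214 in the IDR list, 93.8 in replicate 2 and 129 in replicate 3, and MED6, of the head, had 198, 84.9 and 97.1. The MED6 summit lay 31 bp upstream of the nearest of its 5 TSSs and 12 bp from the TSS of Naa80. MED19 had 180.1, 50.5 and 114, with its summit 114 bp downstream of the TSS, and MED15, a tail subunit that binds activators, had 147, 34.3 and 65.3, with its summit 366 bp upstream. MED15 ranked 12613 of 30000 in replicate 2 and 7379 in replicate 3, the lowest of the 23 member sites in each. Its IDR rank was 4455, near the end of that list.

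Members of Mediator with a pooled but no IDR peak were MED22 (117), MED28 (112), MED10 (98.2), MED23 (70.6) and MED11 (48.2, pooled signals). MED28 and MED10 had peaks in both replicate lists. MED9, MED14 and MED1 had a peak in replicate 2 only, at 47.5, 33.5 and 17.9. MED8 had 82.9 and MED25 had 228 (rank 1140) in replicate 3 only. MED18, MED20, MED21, MED24 and MED26 had none in any list. MED14 encodes the central scaffold of Mediator, and MED20 shares its promoter with Trf, a gene of the TATA-binding protein family.

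Each IDR peak of a member was present in both libraries. In each replicate list all 24 had a matching summit no more than 100 bp away, against 88.5% of the 2836 protein-coding genes with an IDR promoter peak. For 19 (79.2%) the matched peaks ranked high enough in both to fall within the length of the IDR list, against 65.5% of those 2836 genes. Over the 23 sites the median rank was 1588 in replicate 2 and 1749 in replicate 3, and 11 sites ranked higher in replicate 3 and 12 in replicate 2. The signals of the libraries had a Spearman correlation of 0.857 across these 23 sites. This is a description, because all sites passed a cut on pooled signal to which both libraries contributed.

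Some promoter peaks of a single library were strong. Each replicate list was cut to its strongest peaks, as many as the IDR list holds. In replicate 3, 3 of 25 members with such a promoter peak, Polr2J, MED25 and Taf11, had none in the pooled list (12.0%), against 102 of 2868 protein-coding genes (3.56%). In replicate 2 it was 1 of 21, TfIIA-S (4.76%), against 177 of 2870 (6.17%). Their nearest pooled summits were 11916 bp from the Polr2J TSS, 4166 bp from that of Taf11, 1096 bp from that of MED25 and 1021 bp from that of TfIIA-S. With these peaks of replicate 3 in place of the IDR list, 25 members had a promoter peak, and with those of replicate 2 it was 21, both against 20.6% of protein-coding genes.

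Most members sit at divergent promoters, where the TSS of another gene on the opposite strand lies within 500 bp upstream. This was so for 39 of 62 (62.9%), against 29.6% of protein-coding genes. Of these 39, 20 had an IDR peak (51.3%, background 36.7%), and of the 23 other members 4 did (17.4%, background 13.4%). The 4 were Polr2F, TfIIEalpha, Taf4 and MED15. By complex the divergent members with a peak were 6 of 9 Taf, 9 of 18 MED, 2 of 4 TfII and 3 of 8 Polr2 genes. Members have few TSSs, with a single one at 90.3% of them and at 73.5% of protein-coding genes. Among genes with a single TSS, 21 of 56 members (37.5%) had an IDR peak, against 15.3% of all such genes.

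**Figure D3:**
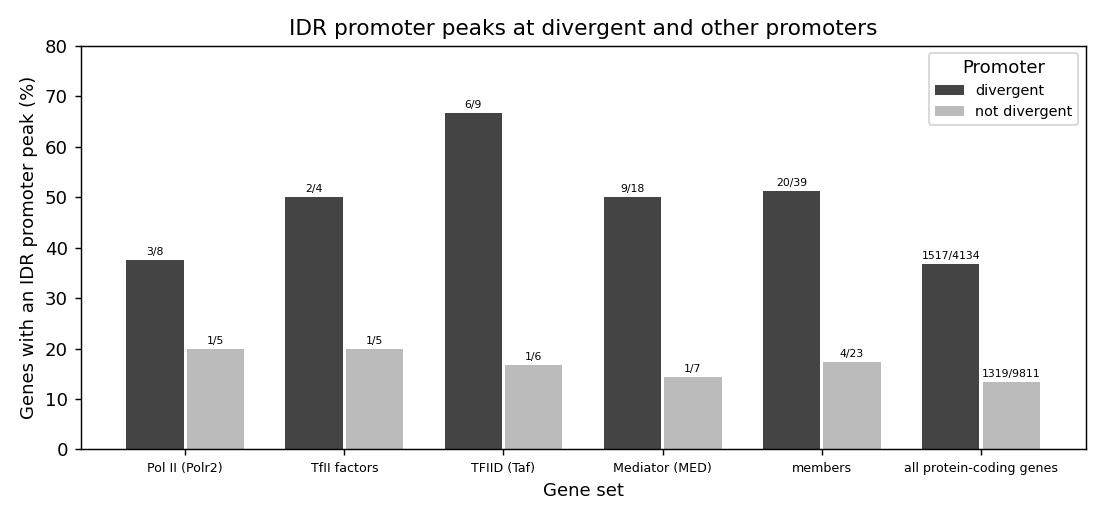
Percentage of genes with an IDR promoter peak (y axis) at divergent promoters (dark bars) and other promoters (light bars), for each complex, all members and all protein-coding genes (x axis); labels give the counts and there are no error bars. In every set the dark bar is taller, with 20 of 39 against 4 of 23 for all members.

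Summits lay upstream of the start site. For the 24 members with an IDR peak the median position relative to the TSS was -129.5 bp, from -366 to 114 bp, and 22 were upstream. For all 2836 protein-coding genes with an IDR promoter peak the median was -132.5 bp, and 83.5% were upstream. Another gene's TSS lay within 500 bp of the summit at 20 of the 24 (83.3%), against 57.5% of those genes. The member's own TSS was the nearest at 11 of the 24 (45.8%), against 72.5%. The 13 members with a pooled but no IDR peak had summits closer to the TSS, with a median of -12 bp, and their own TSS was the nearest at 12. These values were not computed for all protein-coding genes with a pooled but no IDR peak, so they cannot be called particular to the members. Within the genes but outside the promoter window no member had an IDR summit, and 2 members, MED27 and TfIIS, had a pooled one. The share of all protein-coding genes with such summits was not counted.

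**Figure D4:**
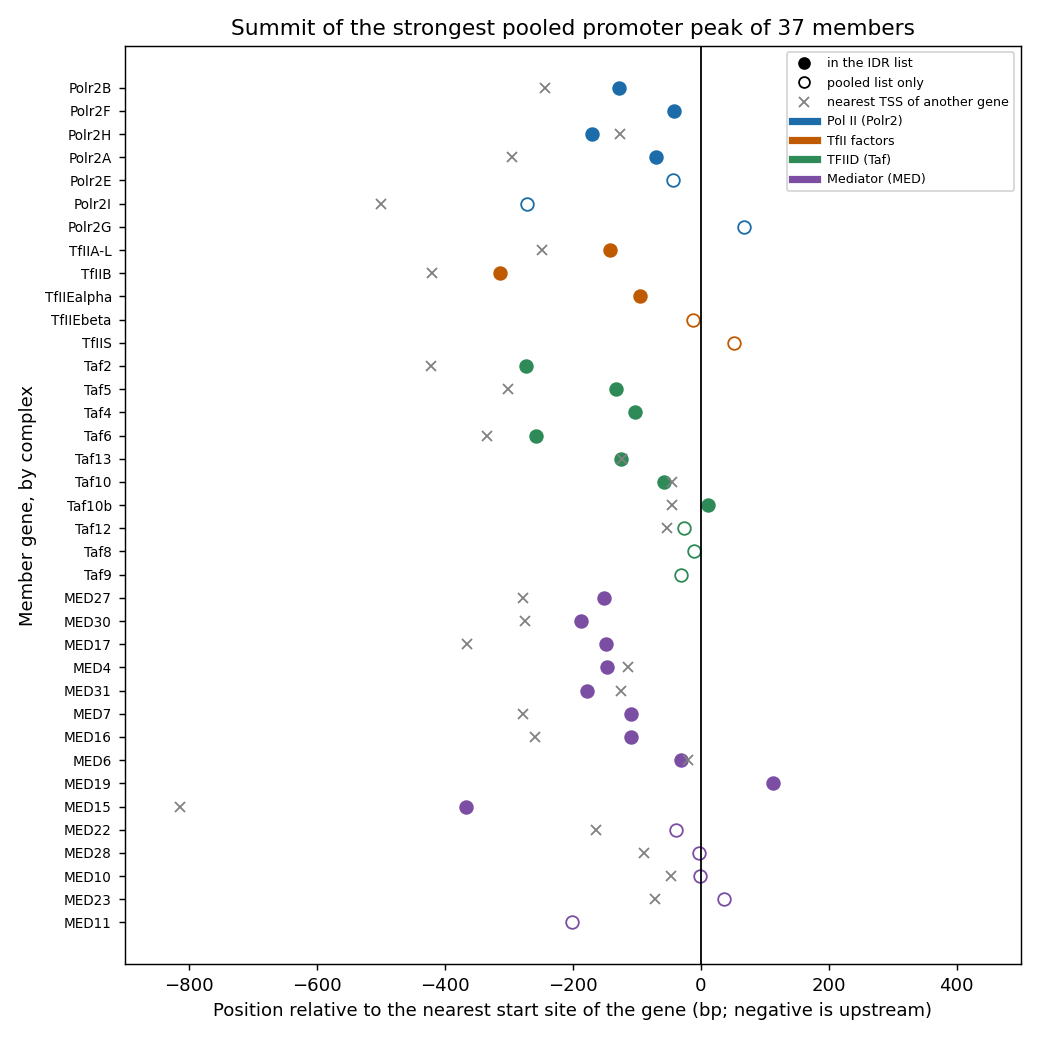
Position of the summit of the strongest pooled promoter peak relative to the nearest TSS of the gene at 0 (x axis, bp) for 37 members (y axis); filled circles are in the IDR list, open circles are not, and grey crosses mark the nearest TSS of another gene within 500 bp of the summit. Filled circles lie mostly upstream, with a median of -129.5 bp, and many sit close to a cross, while open circles have a median of -12 bp.

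Member sites were rich in A and T, like other bound promoters. The 200 bp summit windows of the 23 sites held 34.2% ± 9.21 G and C (SD, n = 23), from 19.5% at Taf2 to 56.0% at MED19 in windows placed on the plus strand, against 35.3% ± 7.98 (SD, n = 2056) for all IDR promoter sites. The Taf2 window printed above follows the minus strand and lies 1 base away, which gives its 20%. The heptamer AAAATAT, on either strand, was in 11 of 23 member windows (47.8%) and in 30.2% of all 2056. It was in those of Polr2B, TfIIA-L, Taf2, Taf4, Taf5, Taf13, MED15, MED16, MED17, MED27 and MED31. The heptamer is made of A and T only. Member windows with it held from 19.5% (Taf2) to 38.5% (Taf4) G and C, and those without it from 29.5% (MED7) to 56.0% (MED19). Whether its share follows base composition was not tested. TTTAAAA was in 26.1% of member windows and 26.3% of all, and it can overlap AAAATAT by up to 4 letters.

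In fixed promoter windows of 300 bp, from 250 bp upstream of the TSS of the longest transcript, AAAATAT was in 16 of 24 members with an IDR peak (66.7%) and in 12 of 38 without (31.6%). The share was 29.3% of all protein-coding promoters and 35.9% of those with an IDR peak. TATCGATA, the site of Dref, was in 11 of 62 member promoters (17.7%), against 8.98% of all. GGTCACAC, the core of the M1BP site, was in 16 of 62 (25.8%), against 7.47% of all. TATCGATA was in 2 of the 24 members with an IDR peak (8.33%) and 9 of the 38 without (23.7%), and GGTCACAC in 4 of 24 (16.7%) and 12 of 38 (31.6%). Over all protein-coding genes with an IDR peak the shares were 14.4% for TATCGATA and 10.9% for GGTCACAC, each above its share of all promoters. TATAAA was in 31 of 62 member promoters (45.3% of all promoters). The members' shares were 19.4% for GAGAG (30.4%), 3.23% for CACGTG (4.25%), 12.9% for CAGCTG (17.9%) and 29.0% for TTTAAAA (27.0%). In the 200 bp summit windows GAGAG was instead in 26.1% of the 23 member sites, against 18.6% of all sites. There TATCGATA, GGTCACAC, CACGTG and CAGCTG were each in 4.35% of member sites, against 7.93%, 4.57%, 2.58% and 11.3% of all. TATAAA was in 39.1% of these member windows and 39.0% of all. A motif match is a description of the letters and shows no bound factor.

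Other genes of the pathway, from lists of symbols, were counted in the same way, against the 20.3% of all protein-coding genes with an IDR promoter peak. SAGA, a coactivator complex that shares Taf proteins with TFIID and acetylates histones, had IDR promoter peaks at 8 of 16 genes (50%), led by Gcn5, its acetyltransferase (signal 568), and Ada2b (410.3). Genes of promoter-proximal pausing and elongation had 7 of 18 (38.9%), led by dre4 (293) and CycT (268), TFIIH had 3 of 10 (30%) and the Mediator kinase module 2 of 4, skd (244) and Cdk8 (235). The TBP family and testis Taf relatives had 0 of 7 (exact interval 0 to 41.0%). Pol I genes had 2 of 7 (28.6%) and Pol III genes 4 of 10 (40%). Counted only where no other gene's TSS was nearer, these became 5 of 16 for SAGA, 5 of 18 for pausing and elongation, 2 of 10 for TFIIH, 1 of 4 for the kinase module, 0 of 7 for the TBP family, 2 of 7 for Pol I and 4 of 10 for Pol III, with 15.2% of all protein-coding genes in that count.

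Ssl1 and Polr3E of these lists had a higher IDR signal than any member. Ssl1, a TFIIH subunit gene, had an IDR signal of 1809 (rank 32), with 768 in replicate 2 (rank 44) and 1047 in replicate 3 (rank 37). Polr3E, a Pol III subunit gene, had 737 (rank 285), with 240.2 and 485. Nelf-E, of the pausing complex NELF, had 244.0 in replicate 2 (rank 403) and 375 in replicate 3 (rank 448) but no promoter peak in the pooled list. Of 2814 sites within the cut lists of both replicates, 17 (0.604%) had no pooled summit within 500 bp, so a gene without an IDR or pooled peak can still have strong peaks in the libraries.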

How the data were processed

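ChIP-seq of CG10147-GFP embryos was analysed from the deposited peak lists of biological replicates 2 and 3, of the pooled libraries and of the IDR threshold. Per the labels, the assembly was dm6 and fragments were 200 to 800 bp. Per the file lists deposited with the data, the authors called peaks on each replicate and on the pooled alignments against a control. No source used here names the caller, the aligner or the read filters. The authors deposited a signal value per peak, with no stated unit, and a −log10 q value, and peaks were ranked by signal. Sequencing depth is unknown. Genes and TSSs came from the FlyBase annotation distributed by Ensembl and sequence from the Release 6 RefSeq assembly; every peak ended within its chromosome. Summits within 500 bp of any TSS of a gene were counted with Python 3.11.15 and pandas 2.3.3, and tied to replicate summits within 100 bp. Intervals are exact Clopper-Pearson at 95% (scipy 1.17.1); neighbouring genes share peaks, so genes are not independent. Counting was tested on simulated data. With 1 group and no condition, no test was made; alternatives are given in the closing section. Members, lists and motifs were chosen with earlier results of these data known. By the naming rule all members with an IDR or pooled peak are given with values; those in a replicate list only, and the Taf10 window, were added after their values were seen. Older symbols e(y)1, bip2, Pds and rye are Taf9, Taf3, Taf8 and Taf12L, which were counted as members and not in the other lists.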

Additional observations from a re-analysis of the deposited data

How the results depend on the processing

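The count of 24 members with an IDR promoter peak was 20 with a TSS window of 200 bp, 25 with 1 kb, 25 where the peak region had only to reach the window, 23 with the TSS of the longest transcript, 17 among the upper 50% of IDR peaks by signal and 24 among IDR peaks found in both replicate lists. The background was 14.7% with 200 bp, 23.3% with 1 kb, 11.9% for the upper 50% and 18.3% for peaks in both lists. It was 21.49% where the peak region had only to reach the window and 18.01% with the TSS of the longest transcript. With a single library the count of members was 21 (replicate 2) and 25 (replicate 3). Counting a summit only where no other gene's TSS was nearer, an alternative added after seeing the data, moved it to 11, and moved the Polr2 count from 4 to 2, TfII from 3 to 1, Taf from 7 to 3 and MED from 10 to 5. MED genes numbered 6 among the upper 50% of peaks. With replicate 3 alone and replicate 2 alone the counts were 5 and 4 for Polr2, 2 and 4 for TfII, 8 and 5 for Taf and 10 and 8 for MED. Replicate 3 alone added MED25, Polr2J and Taf11, and replicate 2 alone added TfIIA-S and TfIIS. Of the 37 members with a pooled promoter peak, 30 had it matched within 100 bp in both replicates, 25 within 50 bp and 32 within 250 bp. All 24 members with an IDR peak were among the 30, and the share over all genes was not computed. Divergent members with an IDR peak were 20 of 39 (51.3%, background 36.7%), and 22 of 45 with a distance of 1 kb (48.9%, background 33.1%). The median summit position was -90.5 bp from the nearest TSS of any gene. No paired analysis was possible because the series has a single group. Depth is unknown, so a missing peak does not show that a promoter is unbound.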
